A study of Mus musculus with 8 samples.

Results

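The genes described here encode the collagens, laminins and other proteins of the extracellular matrix and the basement membrane, measured in mouse cerebellum. Members were chosen by symbol: every collagen chain and laminin chain, together with Fn1, Nid1, Nid2, Hspg2, Agrn, Sparc, Dcn, Lum, Bgn, Fbln1, Fbln2 and Fbln5. Of the 11763 genes listed in at least 1 of the 4 deposited tables, 50 met this rule. They comprised 10 fibrillar collagens, 20 basement membrane genes, 12 other collagens and 8 other matrix genes. Polyadenylated RNA was sequenced from 4 groups of male C57Bl/6 mice at postnatal day 40. The cKO runner group was Snf2h cKO-Nestin mice in the running condition, and the cKO sedentary group was Snf2h cKO-Nestin mice without running. The control runner and control sedentary groups were mice labelled control, whose alleles are not given in the sources used here, in the same 2 conditions. Each group had 2 libraries, and each library was a pool of 3 cerebella, so no value belongs to a single animal. By their titles, the 2 libraries of a group are told apart only as Lane A and Lane B. The design text calls the libraries biological replicates, and whether they are separate pools could not be checked from group values, so every q and p below may measure technical spread. Snf2h is the chromatin remodelling ATPase encoded by Smarca5, and Nestin marks neural progenitors, so the deletion is tied to cells with a Nestin history and their descendants.

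Fibrillar collagens assemble into the ropes of connective tissue; in the brain they belong mainly to the meninges and the walls of larger vessels. Basement membranes are thin sheets built from a laminin network and a collagen IV network, which nidogens and the heparan sulfate proteoglycans perlecan (Hspg2) and agrin (Agrn) connect. In the cerebellum these sheets lie under the pia, where Bergmann glial endfeet attach, around blood vessels, and beneath the epithelium of the choroid plexus.

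The tables gave 1 FPKM value for each group (fragments scaled to transcript length and to the mapped fragments of the library), with no value for single libraries, so no standard deviation could be given for any level. Each comparison came with the authors' fold change, statistic and q-value, and a gene is called here where the q in the authors' deposited table was below 0.05. The tables list almost only genes that passed, and an unlisted gene counts as not called. Smarca5 stood at 5.38 FPKM in cKO runners, 4.94 FPKM in cKO sedentary mice, 13.0 FPKM in control runners and 12.6 FPKM in control sedentary mice, and was called lower in the cKO in both conditions. The markers of granule neurons, the main neurons of this tissue, were all present. All 11 were called lower in the cKO in both conditions, and their summed level was 548 FPKM in cKO runners, 354 FPKM in cKO sedentary mice, 1413 FPKM in control runners and 1367 FPKM in control sedentary mice. In whole tissue, fewer cells of a type and less RNA per cell cannot be told apart. The part of the lower neuronal markers in the results for matrix genes was not tested.

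Levels spanned a wide range. Sparc, a collagen-binding glycoprotein secreted by cerebellar glia and vessels, was far above the rest, at 768 FPKM in cKO runners, 793 FPKM in cKO sedentary mice, 554 FPKM in control runners and 612 FPKM in control sedentary mice. Col18a1, the basement membrane collagen whose end fragment is endostatin, was the next of the single-gene loci by mean over the groups, at 28.3 FPKM in cKO runners, 41.1 FPKM in cKO sedentary mice, 18.6 FPKM in control runners and 19.2 FPKM in control sedentary mice, where Dcn was above it at 20.3 FPKM. Lama3, Col14a1 and Col6a3 stayed under 1 FPKM in every group with a value. Of the 50 genes, 38 had a value in all 4 groups. In 29 of these the highest value was in cKO sedentary mice, and in 20 the lowest was in control sedentary mice. Both cKO values lay above both control values for 33 of the 38, among them all 8 fibrillar collagens with 4 values and 12 of the 13 basement membrane genes. These 38 are the genes listed in both genotype comparisons, where almost only called genes were listed. Separation by genotype was therefore largely set by the listing, and no share over all genes was computed for these counts. The locus of Col20a1 also carries Arfgap1, and its FPKM cannot be assigned to the collagen.

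**Figure D1:**
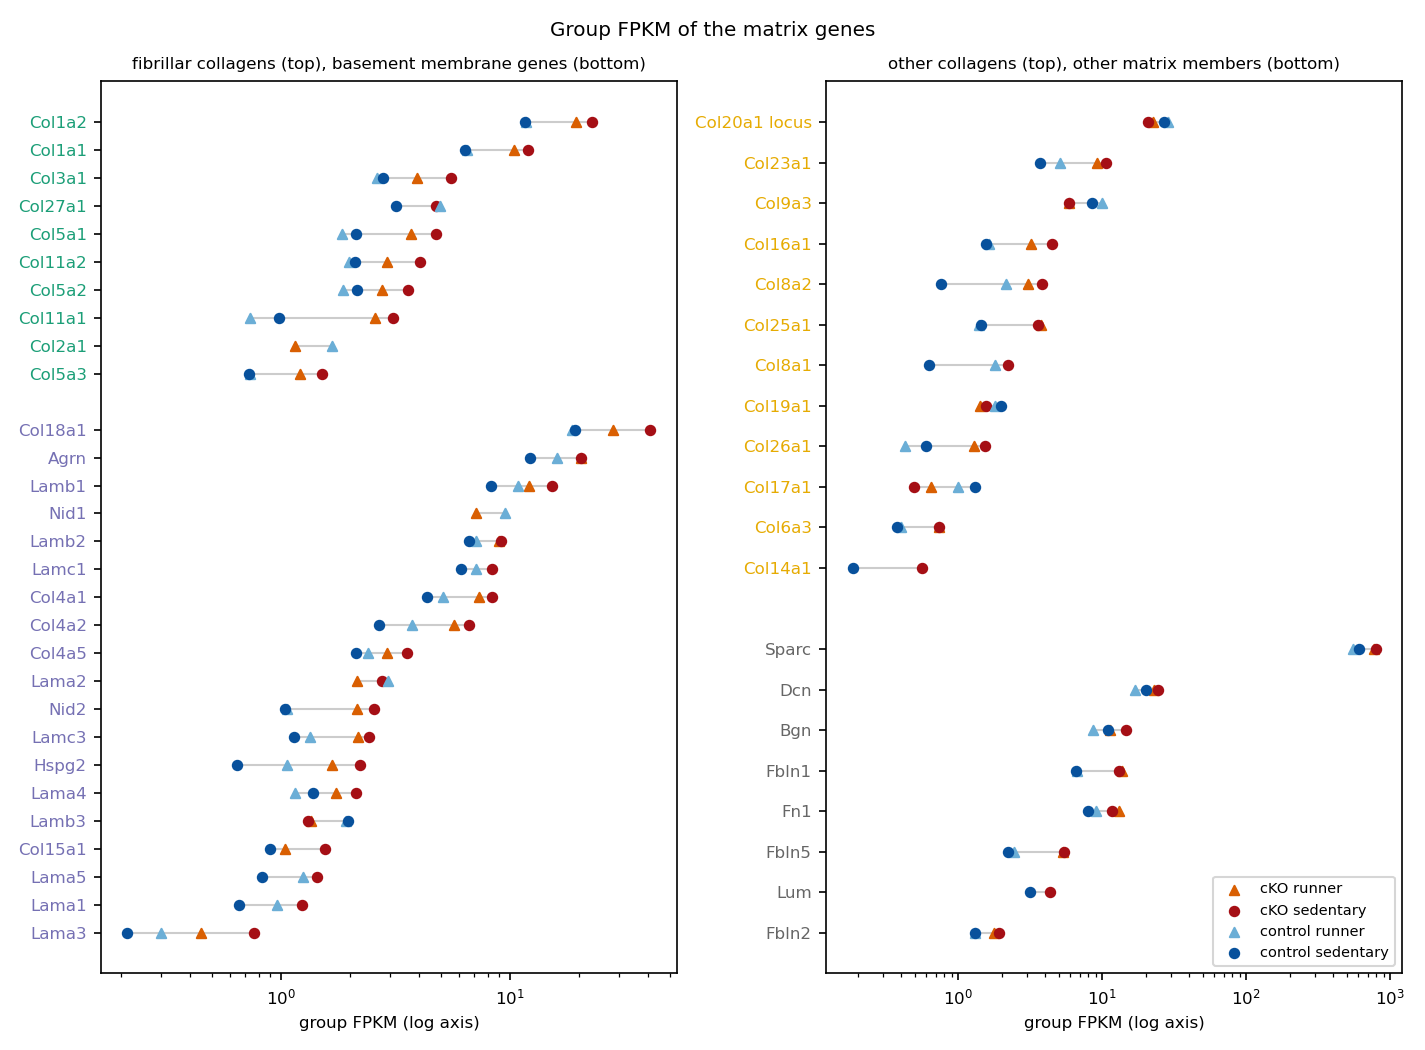
Group FPKM (log axis) of 49 of the 50 genes, with fibrillar collagens and basement membrane genes in the left panel and other collagens and other matrix genes in the right panel, 1 point per group and no error bar because only group values exist. The 38 genes with 4 values are those listed in both genotype comparisons. Among them, 33 have both cKO points to the right of both control points, and Sparc stands apart at 554 to 793 FPKM.

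The 250 bases upstream of the RefSeq start are shown for 4 genes that differed in how they moved: Col3a1, a fibrillar collagen not called with running in controls, Agrn, a basement membrane gene that was, and Col8a1 and Col8a2, the partner chains of collagen VIII, which had the largest fold changes of the 50 genes with running in controls. The windows are chr1:45311288-45311537 on the plus strand, chr4:156197489-156197738 on the minus strand, chr16:57754738-57754987 on the minus strand and chr4:126286544-126286793 on the plus strand of GRCm38.p6. Capitals mark matches to any of 3 short motifs, searched on both strands, and overlapping matches run together. The GC box was searched as the letters GGGCGG in the window. For the TATA box, the letters searched in each of the windows were TATAAA on either strand. The third was the CCAAT box, searched by the letters of its name.
Col3a1: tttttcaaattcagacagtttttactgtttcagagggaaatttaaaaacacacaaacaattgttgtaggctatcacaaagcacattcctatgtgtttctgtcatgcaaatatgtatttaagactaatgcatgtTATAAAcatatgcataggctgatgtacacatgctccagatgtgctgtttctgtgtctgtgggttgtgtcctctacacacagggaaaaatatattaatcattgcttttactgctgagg
Agrn: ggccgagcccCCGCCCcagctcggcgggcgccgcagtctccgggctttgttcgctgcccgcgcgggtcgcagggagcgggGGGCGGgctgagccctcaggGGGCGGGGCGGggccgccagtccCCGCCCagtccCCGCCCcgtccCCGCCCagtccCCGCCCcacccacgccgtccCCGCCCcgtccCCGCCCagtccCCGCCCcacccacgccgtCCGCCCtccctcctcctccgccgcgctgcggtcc
Col8a1: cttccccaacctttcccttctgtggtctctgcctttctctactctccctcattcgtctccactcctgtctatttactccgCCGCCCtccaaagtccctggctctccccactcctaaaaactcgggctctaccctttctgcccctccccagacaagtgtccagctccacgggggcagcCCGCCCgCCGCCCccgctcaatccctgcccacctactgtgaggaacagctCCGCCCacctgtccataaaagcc
Col8a2: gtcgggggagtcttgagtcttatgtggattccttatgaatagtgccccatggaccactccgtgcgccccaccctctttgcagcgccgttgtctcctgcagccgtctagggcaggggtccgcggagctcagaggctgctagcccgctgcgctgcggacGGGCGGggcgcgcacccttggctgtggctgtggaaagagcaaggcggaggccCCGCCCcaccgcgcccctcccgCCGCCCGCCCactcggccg
The Col3a1 window held 1 TATA box match, starting 117 bases before the start, and no GC box. The Agrn window held 12 GC box matches, and the Col8a1 and Col8a2 windows held 4 each. The base composition differed as well: G and C made up 35.2% of the Col3a1 window, 83.6% of the Agrn window, 60.8% of the Col8a1 window and 70% of the Col8a2 window. A GC box was present in 61.5% of the 39 upstream windows found for 34 of the 50 genes, against 32.7% of all 32851 windows, with a median GC content of 60.8% against 52.4%. A CCAAT box was present in 33.3% against 33.8%, and a TATA box in 7.69% against 12.4%. By class, a GC box was present in 85.7% of 7 fibrillar collagen windows and 56.25% of 16 basement membrane windows. Their median GC content was 62% and 61.6%, and a TATA box was present in 28.6% and 0%. In GC box and base composition, Col3a1 and Agrn therefore do not stand for their classes. A match describes the letters and not a bound factor.

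The first comparison asked what Snf2h loss did in sedentary mice. Matrix genes were higher in the cKO across all classes: 41 of the 50 were called higher and 5 lower, where 38.4% of all listed genes were called higher and 44.2% lower. Among fibrillar collagens 9 of 10 were called higher and 0 lower, and among basement membrane genes 16 of 20 were called higher and 1 lower. The median log2 fold change of the called genes in the authors' deposited table was 0.98 for fibrillar collagens and 0.89 for basement membrane genes, against -0.18 for all called genes. Meningeal and fibroblast markers moved the same way, with 16 of 18 called higher and 0 lower, and the summed level of the 15 with 4 values, without Ptgds, was 205 FPKM in cKO sedentary mice and 92.1 FPKM in control sedentary mice. Choroid plexus markers moved further, with 14 of 15 called higher and 1 lower. The median log2 fold change of the called markers was 2.39 for choroid plexus and 0.84 for meninges and fibroblasts. Of 12 mural cell markers 8 were called higher and 2 lower, while of 15 endothelial markers 4 were called higher and 4 lower, and of 10 Bergmann glia and astrocyte markers 5 higher and 5 lower. The part of any of these cell types in the matrix results was not tested.

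Collagen I is the heterotrimer of Col1a1 and Col1a2 and the most abundant fibrillar collagen here. Col1a2 was at 22.9 FPKM in cKO sedentary mice and 11.6 FPKM in control sedentary mice, a ratio of 1.97. Col1a1 was at 12.01 FPKM in cKO sedentary mice and 6.39 FPKM in control sedentary mice, a ratio of 1.88. The chains kept their proportion: Col1a1 over Col1a2 was 0.54 in cKO runners, 0.52 in cKO sedentary mice, 0.55 in control runners and 0.55 in control sedentary mice. Col3a1, the collagen of compliant tissues that forms fibrils with collagen I, was at 5.51 FPKM in cKO sedentary mice and 2.79 FPKM in control sedentary mice. Col5a1, whose product nucleates collagen I fibrils, was at 4.76 FPKM in cKO sedentary mice and 2.13 FPKM in control sedentary mice. The largest ratio in the class was that of Col11a1, a minor fibrillar chain related to collagen V, at 3.10 FPKM in cKO sedentary mice and 0.978 FPKM in control sedentary mice (3.17-fold).

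The 5 listed collagen IV and multiplexin genes were called higher in sedentary cKO mice, in a comparison that listed almost only called genes. Col4a3, Col4a4 and Col4a6 were not listed in any comparison. Col4a1 and Col4a2 encode the main collagen IV heterotrimer from a shared, divergent promoter region. Col4a1 was at 8.38 FPKM in cKO sedentary mice and 4.36 FPKM in control sedentary mice, and Col4a2 at 6.597 FPKM in cKO sedentary mice and 2.67 FPKM in control sedentary mice. Their proportion was less even than in collagen I: Col4a1 over Col4a2 was 1.28 in cKO runners, 1.27 in cKO sedentary mice, 1.37 in control runners and 1.63 in control sedentary mice. Col18a1 was 2.14-fold higher in sedentary cKO mice. Of the 11 laminin chains, 8 were called higher and 1 lower. Lamb1, the beta chain of laminin-111 and its relatives, was at 15.3 FPKM in cKO sedentary mice and 8.28 FPKM in control sedentary mice. Lamb3, a chain of the epidermal laminin, was the laminin called lower, at 1.32 FPKM in cKO sedentary mice and 1.97 FPKM in control sedentary mice. Among the connectors, Hspg2 was at 2.21 FPKM in cKO sedentary mice and 0.643 FPKM in control sedentary mice (3.44-fold), Nid2 was 2.45-fold higher and Agrn 1.66-fold higher.

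The other collagens were split, with 8 of 12 called higher and 4 lower. Col8a2 had the largest ratio of all 50 genes, at 3.83 FPKM in cKO sedentary mice and 0.764 FPKM in control sedentary mice (5.02-fold). Its partner chain Col8a1 was at 2.23 FPKM in cKO sedentary mice and 0.629 FPKM in control sedentary mice (3.54-fold). Col23a1 and Col25a1, transmembrane collagens, were 2.85-fold and 2.49-fold higher, and Col16a1, a fibril-associated collagen, was 2.84-fold higher. Those called lower were Col17a1, the hemidesmosomal transmembrane collagen, at 0.489 FPKM in cKO sedentary mice and 1.31 FPKM in control sedentary mice, the fibril-associated collagens Col9a3 and Col19a1, and the Col20a1 locus. All 8 other matrix genes were called higher, with a smaller median log2 fold change of 0.49 in the authors' deposited table. Fbln5, an elastic fibre assembly protein, was 2.43-fold higher and Fbln1, a basement membrane and elastic fibre protein, 1.98-fold. Dcn, a small leucine-rich proteoglycan that regulates collagen fibrils, was 1.20-fold higher.

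Between running mice of both genotypes the direction was the same. Of the 50 genes, 33 were called higher and 8 lower in cKO runners, where 32.2% of all listed genes were called higher and 36.2% lower. Fibrillar collagens had 8 of 10 called higher and 1 lower, and basement membrane genes 12 of 20 called higher and 3 lower. The median log2 fold change of called genes in the authors' deposited table was 0.68 for fibrillar collagens and 0.51 for basement membrane genes, against -0.11 for all. All 33 genes called higher in runners were also called higher in sedentary mice, 5 were called lower in both conditions, and 0 were called in opposite directions. How often all listed genes agreed between the conditions was not computed, so this agreement is not shown to be particular to matrix genes. Meningeal and fibroblast markers were again higher, with 17 of 18 called higher and 1 lower. The vessel markers moved with the matrix genes here: 13 of 15 endothelial markers were called higher and 1 lower, and 7 of 12 mural markers higher and 1 lower. Of the choroid plexus markers 7 of 15 were called higher and 1 lower, and of the Bergmann glia and astrocyte markers 5 of 10 higher and 5 lower. Their part in the result was not tested.

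Col1a2 was at 19.5 FPKM in cKO runners and 11.8 FPKM in control runners (1.66-fold), and Col11a1 at 2.58 FPKM in cKO runners and 0.733 FPKM in control runners (3.51-fold). Among the basement membrane genes Nid2 had the largest ratio, at 2.15 FPKM in cKO runners and 1.06 FPKM in control runners (2.02-fold). Lamb1 was called higher with a ratio of 1.11, at 12.1 FPKM in cKO runners and 10.8 FPKM in control runners. The genes listed as lower in this comparison and not listed in the sedentary one were Col2a1, the cartilage fibrillar collagen, at 1.15 FPKM in cKO runners and 1.68 FPKM in control runners, Lama2, the laminin alpha chain of muscle and glial basement membranes, at 2.14 FPKM in cKO runners and 2.94 FPKM in control runners, and Nid1, at 7.12 FPKM in cKO runners and 9.52 FPKM in control runners. The nidogens went in opposite directions in runners: Nid1 over Nid2 was 3.31 in cKO runners and 8.95 in control runners. Col26a1 and Col25a1 were 3.04-fold and 2.70-fold higher in cKO runners, and Fbln5 and Fbln1 2.18-fold and 2.08-fold.

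**Figure D2:**
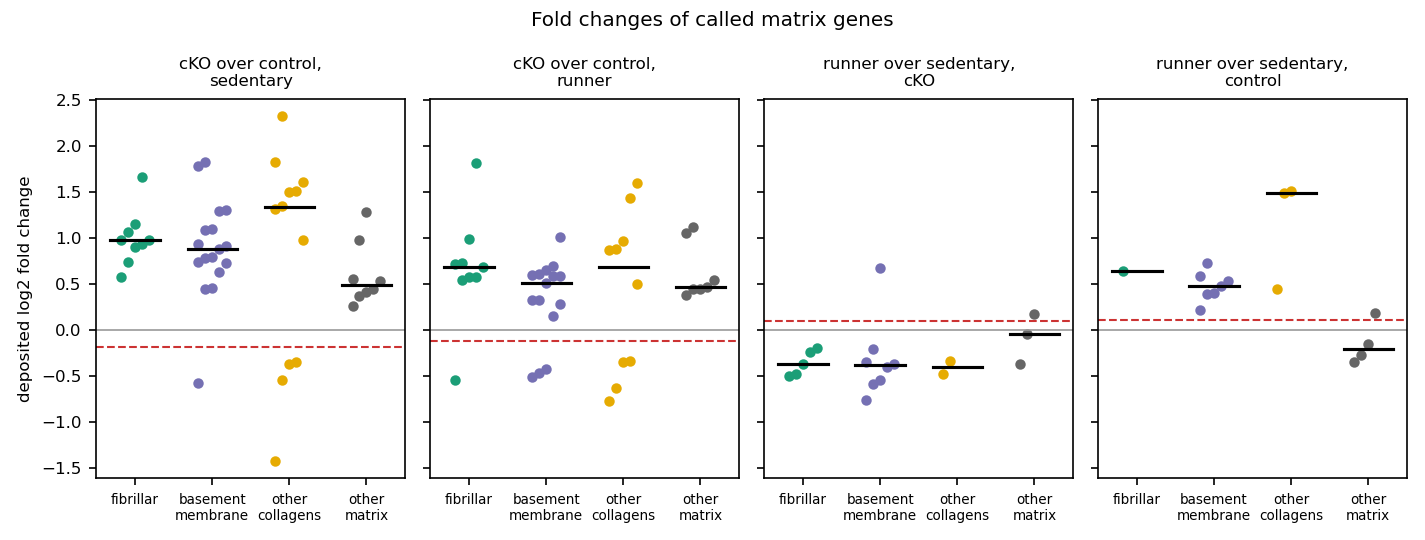
Deposited log2 fold changes of the called matrix genes (1 point per gene) by class in the 4 comparisons, with the class median as a black bar and the median of all called genes as a red dashed line. Fibrillar and basement membrane medians lie at 0.98 and 0.89 in sedentary mice and at 0.68 and 0.51 in runners for cKO over control, and at -0.36 and -0.38 for runner over sedentary within the cKO. In controls the basement membrane median is 0.48, and the fibrillar class has a single called gene.

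Running in the cKO went with lower matrix expression. Of the 50 genes, 16 were called lower and 2 higher in cKO runners relative to cKO sedentary mice, where 13.8% of all listed genes were called lower and 17.7% higher. Fibrillar collagens had 5 of 10 called lower and 0 higher, and basement membrane genes 7 of 20 called lower and 1 higher. The median log2 fold changes in the authors' deposited table were -0.36 for fibrillar collagens and -0.38 for basement membrane genes, against 0.10 for all called genes. Col18a1 was at 28.3 FPKM in cKO runners and 41.1 FPKM in cKO sedentary mice (ratio 0.688), Col3a1 at 3.91 FPKM in cKO runners and 5.51 FPKM in cKO sedentary mice (ratio 0.71), and Lamb1 at 12.1 FPKM in cKO runners and 15.3 FPKM in cKO sedentary mice (ratio 0.789). Fn1, encoding the cell-adhesive glycoprotein fibronectin, was among the genes called higher, at 13.2 FPKM in cKO runners and 11.7 FPKM in cKO sedentary mice. Granule neuron markers moved the other way, with 11 of 11 called higher in cKO runners. Of the mural markers 0 were called higher and 4 lower, of the endothelial markers 4 higher and 1 lower, of the meningeal markers 1 higher and 3 lower, of the choroid plexus markers 0 higher and 4 lower, and of the Bergmann glia and astrocyte markers 2 higher and 6 lower. The part of these cell types in the lower matrix levels was not tested.

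Running in controls gave counts that differed by class, on few genes, and whether the classes themselves differ was not tested. Of the 50 genes, 12 were called higher and 3 lower in control runners relative to control sedentary mice, where 22.1% of all listed genes were called higher and 18.4% lower. The members' share of higher calls was close to that background. By class the share was 35% of basement membrane genes and 10% of fibrillar collagens. Basement membrane genes had 7 of 20 called higher and 0 lower: Col4a2, Lama1, Lama5, Lamb1, Lamc1, Agrn and Hspg2. Fibrillar collagens had 1 of 10 called higher, Col27a1, at 4.94 FPKM in control runners and 3.17 FPKM in control sedentary mice, and 0 lower. Col1a1 and Col1a2 had ratios of 1.02 and 1.01, and Col3a1 a ratio of 0.939, all without a call. Col8a1 was at 1.80 FPKM in control runners and 0.629 FPKM in control sedentary mice (2.86-fold), and Col8a2 at 2.15 FPKM in control runners and 0.764 FPKM in control sedentary mice (2.81-fold). Hspg2 was at 1.07 FPKM in control runners and 0.643 FPKM in control sedentary mice (1.66-fold). Bgn and Dcn, small leucine-rich proteoglycans, and Sparc were called lower, with ratios of 0.789, 0.83 and 0.905.

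Choroid plexus markers, vessel markers and transcript length moved with this comparison. Of 15 choroid plexus markers, 14 were called higher and 0 lower in control runners, and in sedentary mice 14 were called higher and 1 lower in the cKO. Only 10 of the 15 had a value in all 4 groups. Without Ttr, the transthyretin gene and the largest of them, the other 9 summed to 444 FPKM in cKO runners, 449 FPKM in cKO sedentary mice, 372 FPKM in control runners and 146 FPKM in control sedentary mice. Enpp2 made up most of that sum, and without it the remaining 8 summed to 61.6 FPKM in cKO runners, 71.4 FPKM in cKO sedentary mice, 45.6 FPKM in control runners and 16.5 FPKM in control sedentary mice. The control sedentary group was therefore the low group in both comparisons that use it. Ttr alone was at 518 FPKM in control runners and 77.7 FPKM in control sedentary mice. Vessel markers went against the basement membrane genes in this comparison: 7 of 15 endothelial markers were called lower and 1 higher in control runners, and 5 of 12 mural markers lower and 1 higher. Cldn5, a tight junction protein of brain endothelium, was at 9.16 FPKM in control runners and 17.8 FPKM in control sedentary mice, and Kdr, a VEGF receptor, at 1.85 FPKM in control runners and 2.93 FPKM in control sedentary mice. Of the meningeal markers 2 were called higher and 3 lower, of the granule neuron markers 6 higher and 2 lower, and of the Bergmann glia and astrocyte markers 3 higher and 7 lower. None of the markers was at 0 in any group, and the part of choroid plexus tissue in the results for collagen VIII or the basement membrane genes was not tested.

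**Figure D3:**
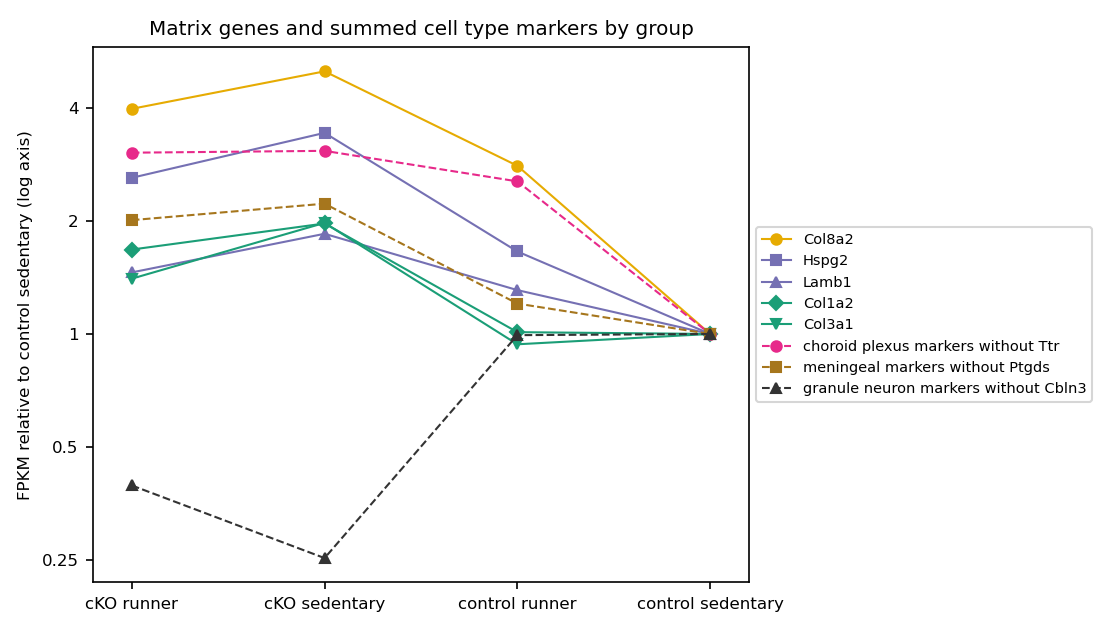
FPKM of 5 matrix genes (solid lines) and summed FPKM of the genes with 4 values in 3 marker lists, each without its largest gene (dashed lines; Enpp2 makes up most of the choroid plexus sum), in the 4 groups relative to control sedentary mice, on a log axis. Col8a2, Hspg2 and the choroid plexus sum are higher in control runners than in control sedentary mice, while Col1a2 and Col3a1 have ratios of 1.01 and 0.939 there.

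Among called genes whose longest annotated transcript exceeds 6 kilobases, 87.6% were higher in control runners, against 4.55% of those under 1 kilobase. The same shares were 65.4% and 20.8% for cKO over control in sedentary mice, 44.2% and 45% for cKO over control in runners, and 38.9% and 62.5% for running in the cKO. Matrix transcripts are long: the median of the members called in the control running comparison was 6450 bases, against 4049 bases for all called genes. With each fold change centred on called genes of like length, 6 basement membrane genes were higher and 1, Lamc1, was lower in control runners. Fn1 turned to -0.11 and Sparc to 0.05 on the log2 scale. Col8a1 and Col8a2 stayed at 1.28 and 1.35. In sedentary mice the centred medians of the genotype effect were 0.68 for fibrillar collagens and 0.61 for basement membrane genes, so the higher level in the cKO was present on this scale too.

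The genotype effects in runners and in sedentary mice share no library, so their difference could be tested for each gene. A two-sided z test used standard errors derived from the authors' deposited statistics, with Benjamini-Hochberg adjustment over the 6751 genes listed in both genotype tables. Of 38 matrix genes tested, 9 passed, 8 with a more negative difference in runners and 1 with a more positive one, where 14.5% of all genes were more negative and 13.5% more positive. Basement membrane genes accounted for 6 of the 9: Col18a1, Lamb1, Agrn, Hspg2, Col4a2 and Lama3, out of 13 tested. Of 8 fibrillar collagens 0 passed, with 1 at an unadjusted p under 0.05. A gene listed in only 1 genotype comparison could not be tested, which left out the fibrillar Col27a1 and Col2a1. Members with an effect in only 1 condition may thus be missing from these counts, in every class. With the standard errors scaled to the deposited p-values, an alternative chosen after seeing the data, 1 fibrillar collagen passed, Col1a2, with an adjusted p of 0.00992 in the z test, and 8 of the 13 basement membrane genes did. In that setting 1276 of all 6751 genes were more negative in runners and 1339 more positive. The median difference was -0.24 for fibrillar collagens and -0.43 for basement membrane genes, against 0.03 for all genes, and whether the classes themselves differ was not tested. The largest difference was that of Col8a2 (chromosome 4, 126286793 to 126314330, GRCm38), at -1.82 on the log2 scale with a 95% interval of -2.38 to -1.27. Lamb1 (chromosome 12, 31265234 to 31329644) had a difference of -0.73 (95% interval -0.94 to -0.53). Col18a1 (chromosome 10, 77052178 to 77166548) had a difference of -0.49 (95% interval -0.61 to -0.37). Of the fibrillar genes, Col1a2 had -0.25 (95% interval -0.47 to -0.02) with an adjusted p of 0.103 in the z test, and Col11a1 0.15 (95% interval -0.52 to 0.81). Both intervals include the -0.41 of Agrn, which passed, so an absence of difference is not shown.

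**Figure D4:**
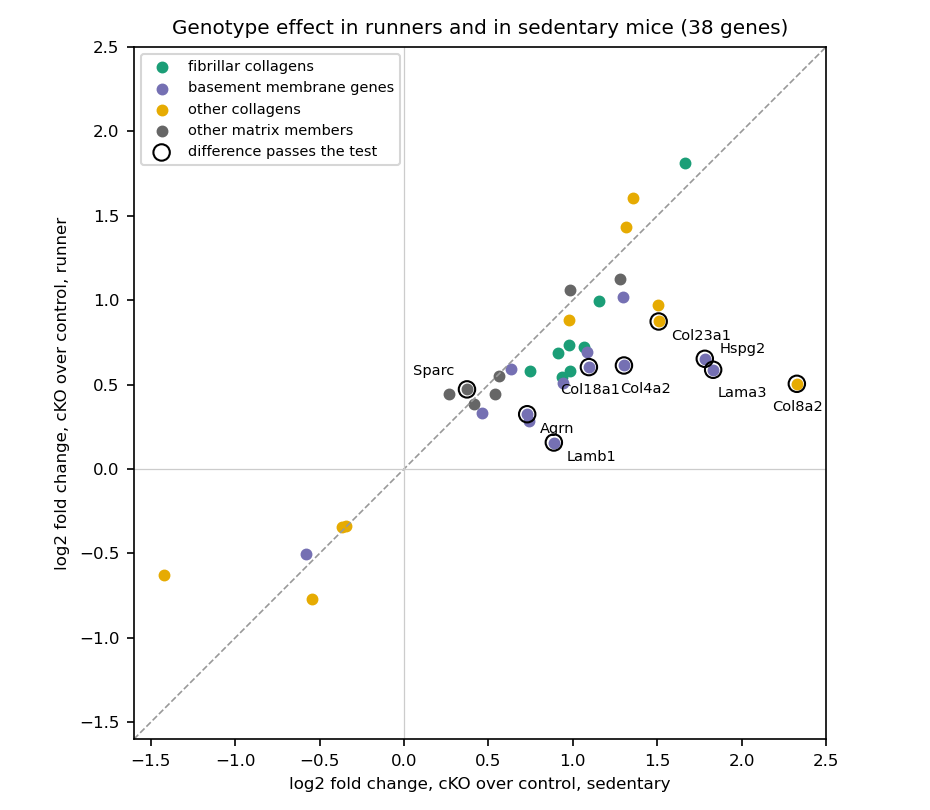
Deposited log2 fold change of cKO over control in runners (vertical) against sedentary mice (horizontal) for the 38 genes listed in both tables, coloured by class, with the line of equality dashed and the 9 genes whose difference passed the z test circled. Of the circled genes, 8 lie below the line, with Col8a2 farthest at 0.50 in runners and 2.33 in sedentary mice, and Sparc lies above it.

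Much of this difference moved with transcript length. After centring on length, 7 of the 38 genes passed, where 13.1% of all genes were more negative and 19.1% more positive. Lamb1, Col8a2 and Col18a1 passed in the same direction as before, Sparc passed with the opposite sign, and Col17a1, Col20a1 and Fn1 passed only after centring. Agrn, Lama3, Col4a2, Hspg2 and Col23a1 no longer passed. The median centred difference was 0.16 for fibrillar collagens, -0.0024 for basement membrane genes and 0.02 for all genes. This alternative was chosen after seeing the data.

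**Figure D5:**
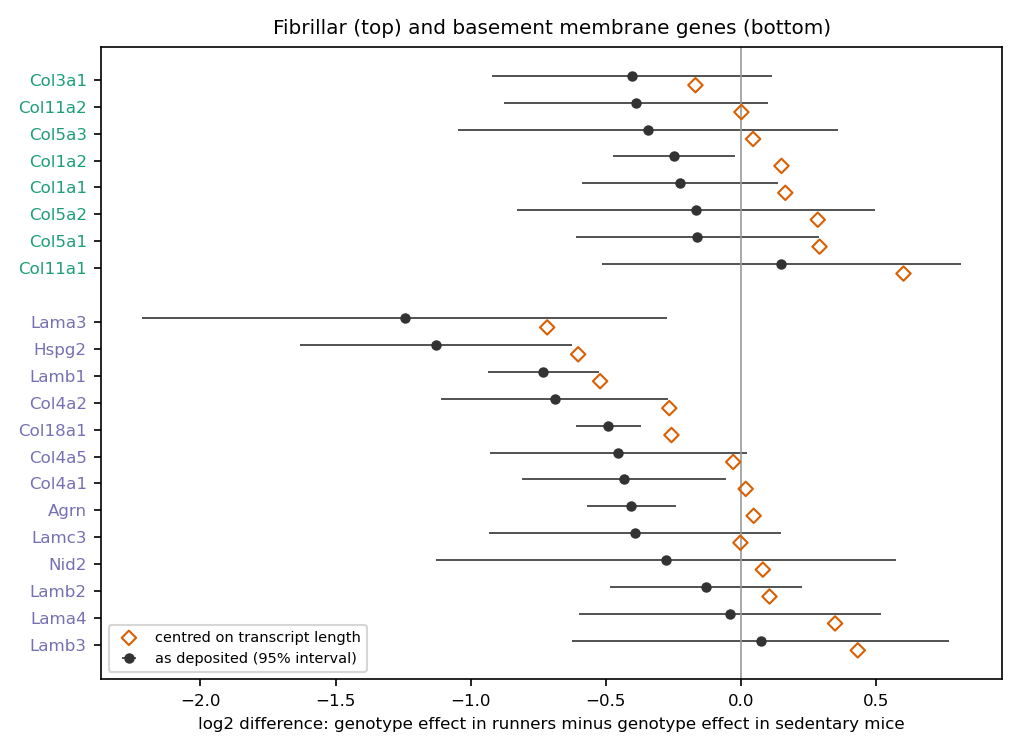
Difference of the genotype effects (runners minus sedentary, log2) for 8 fibrillar collagens (top) and 13 basement membrane genes (bottom), as deposited with 95% intervals from the z test (black) and after centring on transcript length (orange diamonds). Centring moves every gene shown to the right: Hspg2 stands at -1.13 before and -0.60 after, and Agrn at -0.41 before and 0.05 after.

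The genes that process, bind and cut the matrix were called higher in the cKO more often than lower, set beside the shares of all genes (38.4% higher and 44.2% lower in sedentary mice, 32.2% higher and 36.2% lower in runners), while their summed levels did not all follow. Of 22 genes of collagen biosynthesis and crosslinking, 14 were called higher and 5 lower in sedentary cKO mice, and 17 higher and 3 lower in cKO runners. The summed level of the 17 with 4 values was nevertheless 271 FPKM in cKO runners, 267 FPKM in cKO sedentary mice, 278 FPKM in control runners and 277 FPKM in control sedentary mice. Lox, the lysyl oxidase that crosslinks collagen and elastin, was at 1.31 FPKM in cKO runners, 2.33 FPKM in cKO sedentary mice, 0.745 FPKM in control runners and 0.709 FPKM in control sedentary mice. P4ha3, a prolyl 4-hydroxylase subunit, was 3.98-fold higher in sedentary cKO mice. Of 23 matrix receptors, 14 were called higher in the cKO in each condition, 5 lower in sedentary mice and 4 lower in runners. The summed level of the 18 with 4 values was 329 FPKM in cKO runners, 359 FPKM in cKO sedentary mice, 254 FPKM in control runners and 219 FPKM in control sedentary mice. Without the largest gene, Glt25d1 among biosynthesis genes and Sdc4 among receptors, the direction by genotype of these sums stayed the same. Without P4hb as well, the other 15 biosynthesis genes summed to 147 FPKM in cKO sedentary mice and 145 FPKM in control sedentary mice. In runners these sums were 148 FPKM in the cKO and 156 FPKM in controls, so the direction turned in sedentary mice only. Ddr1 and Ddr2, the discoidin domain receptors for collagen, were 2.45-fold and 2.65-fold higher in sedentary cKO mice, while Sdc1, a syndecan, had a ratio of 0.294. Of 16 genes of matrix degradation, 9 were called higher and 5 lower in sedentary cKO mice, and 10 higher and 5 lower in cKO runners, with Adamts4, a proteoglycan-cleaving protease, at 30.2 FPKM in cKO sedentary mice and 8.76 FPKM in control sedentary mice. The summed level of the 13 with 4 values was 259 FPKM in cKO runners, 257 FPKM in cKO sedentary mice, 274 FPKM in control runners and 253 FPKM in control sedentary mice. Without Timp4, the largest, the other 12 summed to 198 FPKM in cKO runners and 199 FPKM in cKO sedentary mice. Their control sums were 185 FPKM in runners and 150 FPKM in sedentary mice. Of 10 genes of elastic fibres, 7 were called higher and 2 lower in sedentary cKO mice, and 4 higher and 2 lower in cKO runners. The 5 with 4 values summed to 19.4 FPKM in cKO runners and 17.5 FPKM in cKO sedentary mice. In controls the sum was 18.4 FPKM in runners and 16.7 FPKM in sedentary mice. Without Ltbp4, the largest, the other 4 summed to 4.77 FPKM in cKO runners and 4.94 FPKM in cKO sedentary mice. Their control sums were 7.91 FPKM in runners and 7.10 FPKM in sedentary mice, so the direction by genotype turned without Ltbp4. Fbn1, the main microfibril protein, was 4.31-fold higher and Emilin3 had a ratio of 0.143 in sedentary mice. With running in the cKO, 17.7% of all listed genes were called higher and 13.8% lower. There 8 receptors were called lower and 0 higher, while the other lists were mixed. Biosynthesis genes had 4 higher and 4 lower, degradation genes 2 higher and 3 lower, and elastic fibre genes 3 higher and 1 lower. With running in controls, 22.1% of all listed genes were called higher and 18.4% lower. There receptors had 6 higher and 2 lower, and biosynthesis genes 2 higher and 1 lower. Degradation genes had 5 higher and 3 lower, and elastic fibre genes 4 higher and 0 lower.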

How the data were processed

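Polyadenylated RNA of 8 cerebellar libraries gave paired-end reads (100 bases per end). The submitters' processing notes name TopHat2 2.0.8b, Cufflinks 2.1.1, Cuffdiff and the build mm10. The authors deposited 4 pairwise tables with a group FPKM, a log2 fold change, a test statistic (a score) and p-values with q-values, per the file headers. Read counts were not used here, so the depth is unknown and no interval for a level could be given. The FPKM of a group was identical in every table that held the gene (13151 of 13151 compared). The 2 libraries of a group carry the lane letters A and B; the design text calls them biological replicates, which could not be checked here, so a q may measure technical spread.

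The values of 1 member are not reported here. Members were found by symbol, levels were read as deposited, and ratios of group FPKM were computed here. Members and gene lists were chosen with earlier results of these data known. Named genes were, in each class, up to 5 with the highest mean FPKM and up to 2 with the largest fold change, plus up to 4 of each further list by q. Other members were named where counts of 7 or fewer called for it, after their values were seen. The genotype effects in both conditions were compared by a z test (scipy 1.17.1, Python 3.11.15) checked on simulated data, with the standard error taken as the log2 fold change over the statistic. Where p exceeded its smallest value of 5e-05, the statistic was 0.72 to 0.73 times the normal quantile of p in the median gene of the genotype tables, so these standard errors are wider than the deposited p-values imply. Transcript lengths and gene positions came from GENCODE M21 (GRCm38, the assembly that mm10 names) and covered 91.0% of genes and all 50 members; length centring used 20 bins. Upstream sequences came from RefSeq on GRCm38.p6.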

Additional observations from a re-analysis of the deposited data

Results flagged for a closer look

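For 9 of the 38 genes tested, the effect of genotype differed between runners and sedentary mice in the z test of the difference itself. In 8 the difference was more negative in runners and in 1 more positive, where 14.5% and 13.5% of all 6751 genes were. The count of 9 is therefore not shown to be particular to matrix genes. The log2 difference, cKO over control in runners minus cKO over control in sedentary mice, was -0.49 for Col18a1, -0.73 for Lamb1, -1.82 for Col8a2, -0.41 for Agrn, -1.13 for Hspg2, -0.69 for Col4a2, -0.63 for Col23a1 and -1.24 for Lama3, and 0.10 for Sparc. The adjusted p was 2.15e-14 for Col18a1, 4.16e-11 for Lamb1, 1.62e-09 for Col8a2, 9.93e-06 for Agrn, 8.37e-05 for Hspg2, 0.00631 for Col4a2, 0.0172 for Col23a1, 0.0441 for Lama3 and 0.00199 for Sparc. Centred on transcript length, Lamb1, Col8a2 and Col18a1 passed with the same sign, Sparc passed with the opposite sign (-0.30), and Agrn, Hspg2, Col4a2, Col23a1 and Lama3 did not pass. Lama3 was under 1 FPKM in all 4 groups.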

How the results depend on the processing

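Leave-one-out fits could not be run because the tables hold group values, and depth cannot be judged from FPKM. No paired analysis was possible because only 1 value per group was deposited. At q below 0.01 each count of calls stayed within 1.5 times. With an FPKM of at least 1 in a group, running in the cKO gave 1 gene called higher among all members and 0 among basement membrane genes. Adding a pseudocount of 1, the medians for fibrillar collagens and basement membrane genes became 0.78 and 0.54 for genotype in sedentary mice, 0.44 and 0.33 for genotype between runners, -0.25 and -0.19 within the cKO, and -0.057 (turned in direction, over 9 genes against 1 called) and 0.16 for running in controls; the cause was not tested beyond the wider set of genes. Centred on length they became 0.68 and 0.61, 0.80 and 0.54, -0.23 and -0.25, and 0.35 and 0.25, and 1 basement membrane gene was lower with running in controls. The count of members with a different genotype effect was 4 from running fold changes (6 members testable), 1 against a 1.5-fold difference, 2 with standard errors from p, whose smallest value caps the quantile, 6 with at least 1 FPKM in all 4 groups (30 testable), and, chosen after seeing the data, 7 after length centring and 14 with standard errors scaled to p, all 9 among them. The settings without a stated number had 38 members testable. All-gene counts, more negative then more positive, were 770 and 621 of 2078 from running fold changes. They were 51 and 17 of 6751 against 1.5-fold, and 373 and 186 of 6751 with standard errors from p. The 1 FPKM setting gave 949 and 903 of 5798. Length centring gave 808 and 1178 of 6161, and scaled standard errors 1276 and 1339 of 6751. The member counts are not shown to be particular to matrix genes.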
